A study of Mus musculus with 8 samples.

Results

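The circadian clock of the liver was described through 10 genes: the activators Arntl and Npas2, the repressors Nr1d1, Nr1d2, Per1, Per2 and Per3, and the output factors Dbp, Tef and Hlf. A gene was taken where the array's annotation gave its probe set that symbol alone, and the probe set of highest mean over the arrays stood for it. This left 9 of the 10 among 22180 genes tested. The probe set of Per2 carries 2 symbols, so no value is given for it. Liver RNA of 8 C57BL/6N mice aged 27 days was measured, with 1 Affymetrix whole-transcript array per mouse. All values are on the log2 scale, so that a difference of 1 unit is a doubling, and they are the authors' RMA values.

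Knockout mice, 4 in number, had Sco1 floxed on both alleles and a Cre transgene under the albumin promoter (genotype label Albumin-Cretg/wt:Sco1fl/fl). That promoter acts in hepatocytes, and which other cells of the liver kept Sco1 was not measured. Sco1 is a copper chaperone needed to assemble cytochrome c oxidase in mitochondria. The 4 control mice, titled Sco1fl/fl and called wild-type in the labels, were of both of the following genotypes. Wild-type mice 1 and 3 were labelled Albumin-Cretg/wt:Sco1fl/wt, and mice 2 and 4 Albumin-Crewt/wt:Sco1fl/fl. Every mouse therefore carried at least 1 floxed allele of Sco1, and no mouse was free of both Cre and floxed alleles. The labels name no collection time, lighting schedule, feeding state or sex, so no gene could be set against a time of day.

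The mammalian clock is a feedback loop of transcription. A dimer of ARNTL (also called BMAL1) with CLOCK or its relative NPAS2 binds E-box elements and drives the Per, Cry and Nr1d genes and Dbp, whose products appear later in the day. PER and CRY proteins inhibit the dimer, and the nuclear receptors encoded by Nr1d1 and Nr1d2 (REV-ERB alpha and beta) repress Arntl and Npas2 through ROR elements, which places these activators out of phase with the other genes. DBP, TEF and HLF bind D-box elements in genes of liver metabolism. In liver these genes are known for large daily swings.

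RefSeq promoter windows of build GRCm38.p6, from 250 bases before to 50 after an annotated start, were on hand for 9 of the 10 genes, Per2 being the exception. They were searched on both strands for CACGTG (E-box, which reads alike on both strands), CACGTT (a variant E-box), TTATGTAA or TTACGTAA (D-box), and TAGGTCA or TGGGTCA (core of the ROR element). The matches are shown in capitals within 30 bases, because elements of these kinds were named above. Whether they are bound in these livers was not measured.
Tef, E-box, chr15:81802534-81802563, plus strand: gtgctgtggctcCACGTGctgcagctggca
Tef, E-box, chr15:81811264-81811293, plus strand: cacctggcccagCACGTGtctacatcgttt
Per1, E-box, chr11:69098771-69098800, plus strand: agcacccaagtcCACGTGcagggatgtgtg
Nr1d1, variant E-box, chr11:98775388-98775417, minus strand: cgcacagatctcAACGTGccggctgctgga
Per3, D-box, chr4:151044852-151044881, minus strand: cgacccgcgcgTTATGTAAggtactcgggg
Per3, D-box, chr4:151044805-151044834, minus strand: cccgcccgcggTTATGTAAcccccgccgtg
Arntl, ROR element core, chr7:113207530-113207559, plus strand: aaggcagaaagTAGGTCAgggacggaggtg

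Counted from the annotated start, the matches of Tef lie at -127 and -138, each at a start of its own, and that of Per1 at -166. The variant E-box of Nr1d1, read here as its reverse complement, lies at -28. The matches of Per3 lie at -205 and -158, and that of Arntl at 31. Of 32851 windows in the table, 7.15% held the E-box letters, 4.68% the variant, 1.06% the D-box and 6.45% the ROR core. Of the 9 genes 2 held the E-box and 1 each of the others. A gene was counted if any of its windows held the letters, so these counts are not to be set against the shares of single windows. A match is a description of letters, and no match says only that these letters are not in the window.

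The targeted gene came first. Sco1 was at 7.48, 7.62, 7.72 and 7.56 in knockout mice 1 to 4 and at 7.84, 7.93, 8.19 and 8.04 in wild-type mice 1 to 4. The groups did not overlap. The difference was -0.41 ± 0.09 (SE, n = 4 each) and missed the threshold of 0.05 (limma, adjusted p = 0.0633, by the Benjamini-Hochberg method over the 22180 genes). Which exons its probes cover was not known, so this difference does not measure the deletion. Array medians lay between 5.79 and 5.89. Of 10 hepatocyte markers 9 were measured, and their mean level was 13.04 to 13.10 in knockout and 13.10 to 13.13 in wild-type livers.

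One mouse in each genotype differed from all others in the clock, and it was the mouse that its title numbers 1. In knockout mouse 1 and wild-type mouse 1, Dbp, Tef, Hlf, Nr1d1, Nr1d2 and Per3 lay above, and Arntl and Npas2 below, every mouse numbered 2 to 4. Per1 was the exception. Over all genes both mice numbered 1 lay above every other mouse in 4.82% and below in 4.6%. A gap of at least 1 log2 unit was found in 4 genes above (0.018% of all genes) and in 3 below (0.0135%). Of these 7 genes 5 were clock genes: Dbp with a gap of 2.33, Nr1d2 of 1.58, Nr1d1 of 1.55, Npas2 of -1.35 and Arntl of -1.14. The others were Ppard, a nuclear receptor of lipid metabolism, with a gap of -1.46, and Rgs16, a regulator of G protein signalling, with 1.13. These gaps were chosen after the values were seen and carry no test.

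**Figure D1:**
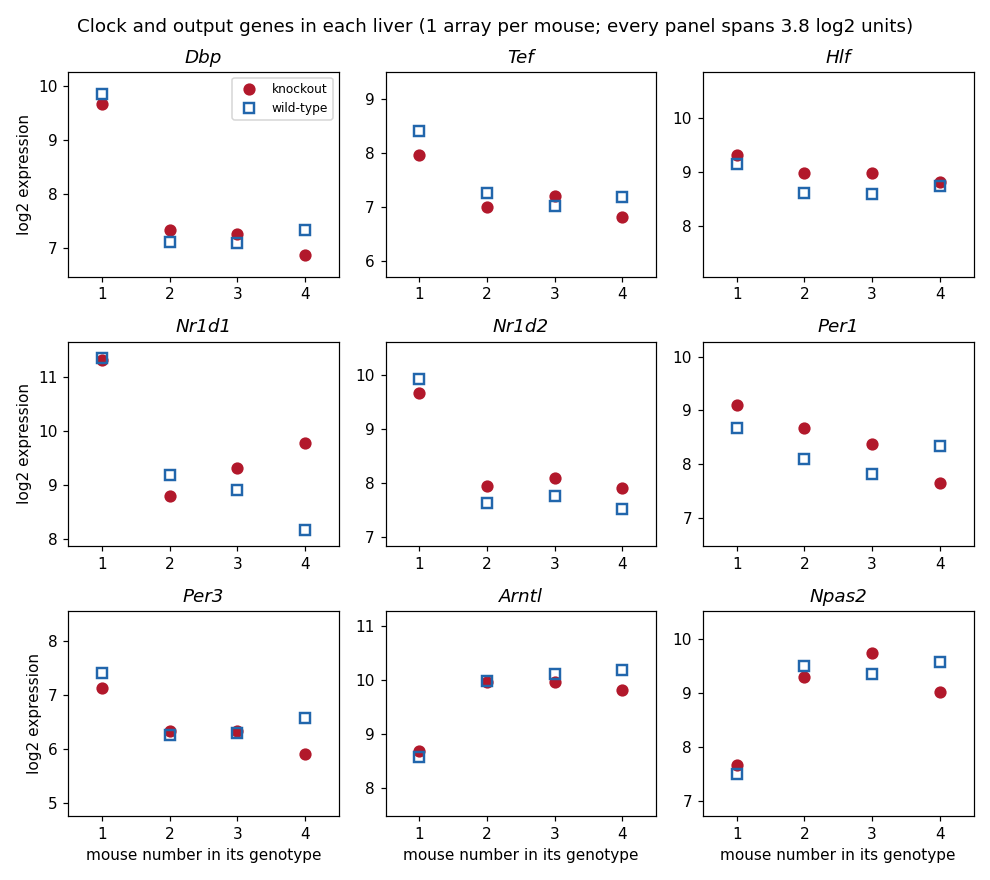
Level of each of the 9 genes (log2 units, vertical axis) by mouse number (horizontal axis), with filled circles for knockout and open squares for wild-type mice and the same span of 3.8 units in every panel. Mice numbered 1 of both genotypes lie beyond the rest in every panel but that of Per1, by least in Hlf and by most in Dbp, where they are at 9.66 and 9.86 and the others between 6.87 and 7.33.

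Arntl encodes the obligate activator of the loop. It was at 8.68, 9.97, 9.96 and 9.82 in knockout mice 1 to 4 and at 8.57, 9.99, 10.11 and 10.19 in wild-type mice 1 to 4. Mice numbered 1 were the lowest of both groups, and the genotypes overlapped. Knockout mouse 1 lay 2.42-fold below the median of knockout mice 2 to 4, and wild-type mouse 1 lay 2.92-fold below that of its group. The group means were 9.61 ± 0.62 and 9.71 ± 0.77 (SD, n = 4 each), a difference of -0.11 ± 0.37 (SE; limma, adjusted p = 0.913).

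Npas2, which can take the place of CLOCK in the dimer, had the same extreme mice. Its level was 7.66, 9.29, 9.74 and 9.01 in knockout mice 1 to 4 and 7.49, 9.50, 9.34 and 9.58 in wild-type mice 1 to 4. Mice numbered 1 were again lowest, 3.10-fold below the median of the other knockout mice and 4.03-fold below that of the other wild-type mice. The means of 8.92 ± 0.90 and 8.97 ± 0.997 (SD, n = 4 each) differed by -0.05 ± 0.50 (SE; limma, adjusted p = 0.97).

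Nr1d1, the repressor that closes the loop on Arntl, spanned 9.22-fold over the 8 mice, from 8.16 to 11.36. Knockout mice 1 to 4 were at 11.32, 8.80, 9.31 and 9.77 and wild-type mice 1 to 4 at 11.36, 9.18, 8.91 and 8.16. Both mice numbered 1 were the highest, 4.05-fold and 5.50-fold above the medians of the other mice of their genotype. Among the rest the range was still 1.61 units, with knockout mouse 4 highest and wild-type mouse 4 lowest. The means were 9.80 ± 1.09 and 9.40 ± 1.38 (SD, n = 4 each), with a difference of 0.40 ± 0.65 (SE; limma, adjusted p = 0.788).

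Nr1d2, the second REV-ERB gene, was at 9.67, 7.94, 8.09 and 7.92 in knockout and at 9.93, 7.64, 7.77 and 7.53 in wild-type mice 1 to 4. Mice numbered 1 were highest, 3.30-fold and 4.91-fold above the medians of the other mice of their genotype. Among mice 2 to 4 every knockout mouse lay above every wild-type mouse. Over all 8 the means of 8.41 ± 0.84 and 8.22 ± 1.15 (SD, n = 4 each) differed by 0.19 ± 0.53 (SE; limma, adjusted p = 0.888).

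Per1 encodes a repressor that hormones and fasting signals also induce. Its level was 9.11, 8.68, 8.38 and 7.65 in knockout and 8.68, 8.10, 7.82 and 8.34 in wild-type mice 1 to 4. Knockout mouse 2 stood level with wild-type mouse 1, so the mice numbered 1 were not both beyond the others. The difference was 0.22 ± 0.27 (SE, n = 4 each; limma, adjusted p = 0.711).

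Per3, a further period gene, was at 7.12, 6.33, 6.33 and 5.90 in knockout and 7.41, 6.26, 6.30 and 6.58 in wild-type mice 1 to 4. Mice numbered 1 were highest, by 1.73-fold and 2.17-fold over the medians of the others. The genotype difference was -0.22 ± 0.28 (SE, n = 4 each; limma, adjusted p = 0.725).

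Dbp, the output factor with the widest swing of the 3 PAR bZIP genes, was at 9.66, 7.33, 7.26 and 6.87 in knockout and 9.86, 7.11, 7.08 and 7.33 in wild-type mice 1 to 4. Mice numbered 1 exceeded the medians of the others by 5.26-fold in the knockout and 6.71-fold in the wild-type group. The remaining 6 mice lay within 0.46 units. Group means of 7.78 ± 1.27 and 7.85 ± 1.35 (SD, n = 4 each) differed by -0.07 ± 0.69 (SE; limma, adjusted p = 0.971).

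Tef, a close relative of Dbp, was at 7.96, 7.0, 7.21 and 6.81 in knockout and 8.41, 7.26, 7.02 and 7.18 in wild-type mice 1 to 4. Mice numbered 1 were highest, by 1.94-fold and 2.35-fold over the medians of the others. Its difference was -0.22 ± 0.31 (SE, n = 4 each; limma, adjusted p = 0.746). A second probe set of Tef spanned 6.03 to 6.39 and was also highest in both mice numbered 1. Hlf, the third of these factors, was at 9.32, 8.98, 8.98 and 8.81 in knockout and 9.15, 8.61, 8.60 and 8.75 in wild-type mice 1 to 4. Mice numbered 1 were highest here too, but by 1.27-fold and 1.45-fold. The Hlf difference was 0.25 ± 0.14 (SE, n = 4 each; limma, adjusted p = 0.4), the smallest adjusted p of the 9 genes.

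The spread within a genotype was ranked over all 22180 genes, as a description with no test. By SD over the 4 wild-type mice Nr1d1 ranked 2, Dbp 3, Nr1d2 7, Npas2 8, Arntl 17, Tef 47, Per3 108, Per1 504 and Hlf 1844. In the knockout group Dbp ranked 8, Nr1d1 15, Npas2 26, Nr1d2 32, Arntl 82, Per1 85, Per3 177, Tef 187 and Hlf 4667. Hlf was thus the least variable of the 9 in both genotypes. Wild-type mice 1 and 3 share a genotype label, and their Dbp was 9.86 and 7.08. What set the mice numbered 1 apart was not tested.

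Phase relations were then examined over pairs of genes. Over the 8 mice 28 of 36 pairs passed an adjusted p of 0.05 (Pearson correlation, two-sided exact permutation test over all pairings, Benjamini-Hochberg over the 36 pairs), and 2 of 36 by Spearman rank correlation. All 14 pairs that set Arntl or Npas2 against another gene were negative and all 22 other pairs positive. The 8 mice formed 2 separate clusters, so no coefficient over all 8 is given for a pair. Without both mice numbered 1, 0 of 36 pairs passed (6 at an unadjusted p under 0.05 by Pearson and 1 by Spearman). In these 6 mice only 5 of the 14 opposed pairs were negative and 13 of the other 22 positive. The signs over all 8 livers thus rested on the mice numbered 1.

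**Figure D2:**
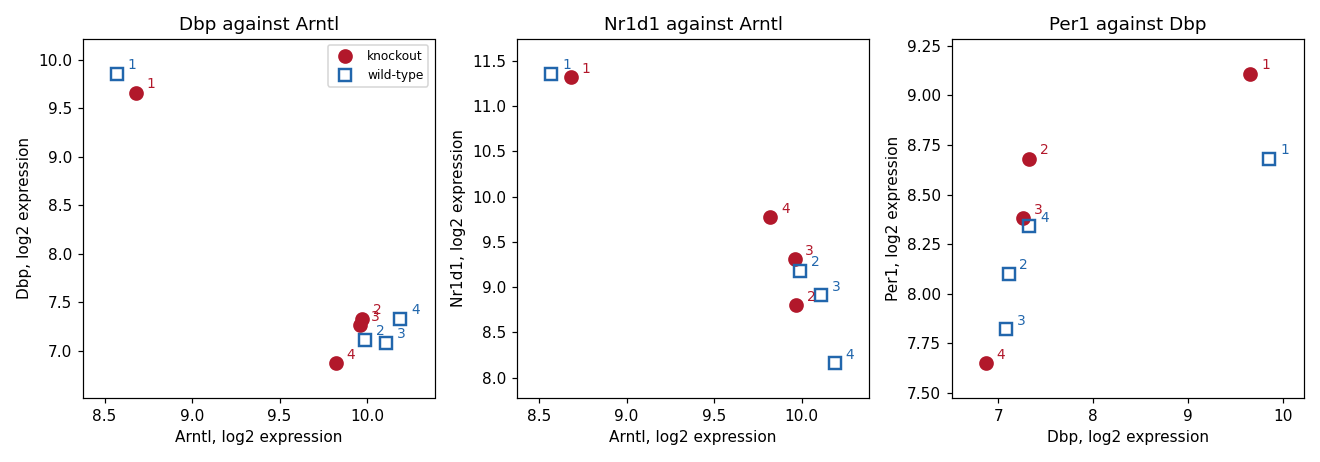
Levels in each mouse of Dbp against Arntl, Nr1d1 against Arntl and Per1 against Dbp (log2 units on both axes), filled circles for knockout and open squares for wild-type mice, with the mouse number beside each point. Mice numbered 1 form a cluster at low Arntl (8.57 and 8.68) with high Dbp and Nr1d1, and the other 6 mice lie between 9.82 and 10.19 in Arntl.

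The 6 pairs at an unadjusted p under 0.05 among the mice numbered 2 to 4 were these. Dbp and Per1 correlated at r = 0.93 and rho = 0.83 (exact permutation p = 0.0111 and 0.0583, n = 6 mice; adjusted 0.183 and 0.525), and at r = 0.97 without the mice farthest from the Dbp median. Dbp and Per3 correlated at r = 0.89 and rho = 0.89 (exact permutation p = 0.0083 and 0.0333, n = 6; adjusted 0.183 and 0.525), and at 0.83 without the farthest mice. Neither pair passed the adjustment. Each r without the farthest mice, here and below, leaves out the 2 mice farthest from the median of the first gene named. Such an r rests on the 4 mice left and is a description.

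Nr1d1 and Arntl ran against each other at r = -0.90 and rho = -0.83 (exact permutation p = 0.0236 and 0.0583, n = 6; adjusted 0.212 and 0.525). Without the 2 mice at the ends of the Nr1d1 range r was -0.40 (n = 4 mice). Nr1d1 and Per3, a positive pair over the 8 mice, were opposed in these 6 at r = -0.92 and rho = -0.66 (exact permutation p = 0.0389 and 0.175, n = 6; adjusted 0.25 and 0.573). That r was -0.16 without the farthest mice. Tef and Npas2 correlated at r = 0.92 and rho = 0.83 (exact permutation p = 0.0153 and 0.0583, n = 6; adjusted 0.183 and 0.525), and Per3 and Arntl at r = 0.87 and rho = 0.49 (exact permutation p = 0.0417 and 0.356, n = 6; adjusted 0.25 and 0.753). Without the farthest mice these were 0.98 and -0.34 (n = 4 mice).

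With each genotype's mean taken out, an alternative chosen after seeing the data, 13 pairs of the same 6 mice had an unadjusted p under 0.05 by Pearson and 10 by Spearman. The values left then sum to 0 within each genotype, so they are not free to be paired at will over the 6 mice. The permutation p of this paragraph are therefore not exact and only describe the pairs, and nothing is drawn from the larger count. The smallest adjusted p was 0.05, and 0 pairs were under the threshold. Dbp and Per1 then correlated at r = 0.97 and rho = 1.0 (permutation p = 0.0014 and 0.0028, n = 6; adjusted 0.05 and 0.1). Dbp and Hlf, at r = 0.40 with the genotype means left in, correlated at r = 0.96 and rho = 0.83 without them (permutation p = 0.0083 and 0.0583, n = 6; adjusted 0.0556 and 0.175). Of the 14 pairs with Arntl or Npas2 2 were negative, and Nr1d1 and Arntl stood at r = -0.90 and rho = -0.94 (permutation p = 0.0333 and 0.0167, n = 6; adjusted 0.0923 and 0.12), and at -0.98 without the farthest mice. Without the farthest mice the other pairs named here were at 0.90 and 0.997, and each such r rests on 4 mice.

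Whether the clock differs by genotype was asked of each gene. Of the 9 genes 0 passed the threshold and 0 had an unadjusted p under 0.05 (limma), while 1.15% of all genes passed, 0.433% higher and 0.717% lower in the knockout, and 16.7% had an unadjusted p under 0.05. Beside 1.15%, a count of 0 of 9 past the threshold is near the background and is by itself no result about the clock. The same holds for the counts of 0 passed in the fits and lists below. No gene had groups that did not overlap, against 10.7% of all genes. The median difference of the 9 genes was -0.05, and that of all genes 0.03. Exact permutation tests of single genes over the 70 assignments gave p between 0.171 for Hlf and 0.886 for Npas2. The 95% intervals were wide, from -1.58 to 1.44 for Dbp and from -1.03 to 1.83 for Nr1d1, so a difference of 2-fold in either direction lay inside the interval of these genes. For Hlf the interval ran from -0.06 to 0.55.

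The mice numbered 1 were the extremes of nearly all of these genes, so narrower intervals without them were largely fixed by the choice and are no result. The controls left were wild-type mouse 3, with Cre, and the Cre-free mice 2 and 4. Without both mice numbered 1 the intervals narrowed. That of Dbp ran from -0.33 to 0.28 and that of Arntl from -0.39 to 0.03, with 3 mice per genotype. That of Nr1d1 ran from -0.11 to 1.20 and still held a doubling, and that of Per1 from -0.40 to 0.70. The intervals of Nr1d2 (0.12 to 0.56) and Hlf (0.06 to 0.48) lay above 0. They are not adjusted for the number of genes or for that choice of mice. Again 0 of 9 genes passed, beside 0.293% of all genes (0.126% higher and 0.167% lower). At an unadjusted p under 0.05 there were 2, Nr1d2 and Hlf, beside 14.6% of all genes. Nr1d2 was at 7.98 ± 0.09 in knockout and 7.64 ± 0.12 in wild-type mice 2 to 4 (SD, n = 3 each), a difference of 0.34 ± 0.10 (SE; limma, adjusted p = 0.179). Hlf was at 8.92 ± 0.10 and 8.65 ± 0.09 (SD, n = 3 each), a difference of 0.27 ± 0.09 (SE; limma, adjusted p = 0.239). Among these mice 3 of the 9 genes had groups that did not overlap, Nr1d2 and Hlf higher and Arntl lower in the knockout, against 21.6% of all genes. With the Arntl level as a covariate, 0 of 8 genes passed, beside 1.63% of all genes (0.559% higher and 1.07% lower). In that fit 2 had an unadjusted p under 0.05, beside 3845 of all 22179 genes. They were Tef at -0.30 ± 0.11 and Hlf at 0.21 ± 0.08 (SE; limma, adjusted p = 0.198 and 0.234).

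**Figure D3:**
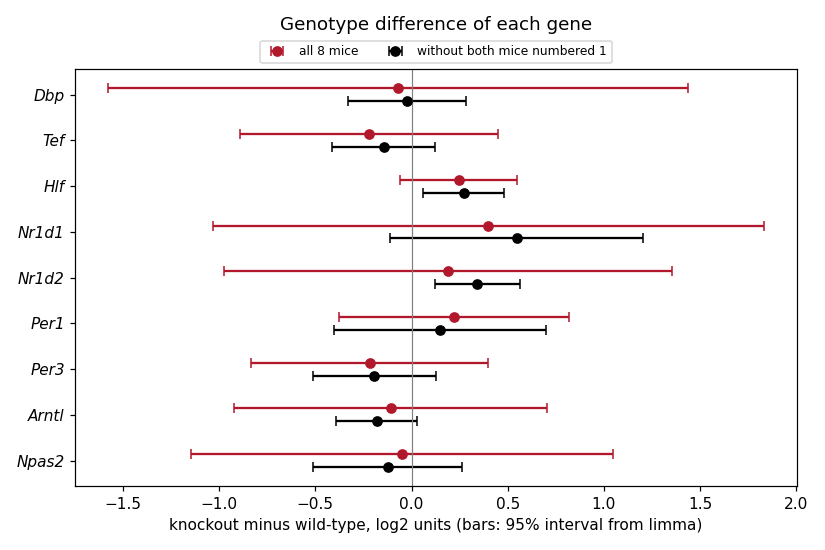
Knockout minus wild-type difference of each gene in log2 units (horizontal axis) with its 95% interval from limma, over all 8 mice (red) and without both mice numbered 1 (black). Every interval over 8 mice spans 0, and the interval of Dbp narrows from -1.58 to 1.44 to -0.33 to 0.28 without the mice numbered 1. Those of Nr1d2 (0.12 to 0.56) and Hlf (0.06 to 0.48) then lie above 0, not adjusted for the number of genes. The mice left out were extreme in these same genes, so the narrowing is largely fixed by the choice.

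Set against each class of control, 0 of the 9 genes passed either. In the fit with 3 groups 0.212% of all genes passed against the Cre-free mice (0.0676% higher and 0.144% lower) and 0.131% against the mice with Cre (0.0586% higher and 0.0721% lower). Dbp stood at 0.56 ± 0.81 against the first and at -0.69 ± 0.81 against the second class (SE), the class that holds wild-type mouse 1. Between both classes of control no gene passed (0%, with 671 genes at an unadjusted p under 0.05 by limma), and Dbp differed by 1.25 ± 0.93 (SE, n = 2 each).

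Of 12 other genes of the loop 11 were measured. In 6 of them both mice numbered 1 lay beyond all others, 3 above and 3 below. Between genotypes 0 passed (median difference 0.03), which is near the background of 1.15% of all genes. Nfil3, a repressor that binds D-box elements and is itself repressed by REV-ERB, was at 7.83 and 8.02 in the mice numbered 1 and between 8.76 and 9.15 in the others. Cry1, another REV-ERB target, was at 6.85 and 6.62 against 7.43 to 7.91. Ciart, a repressor of the ARNTL dimer, went the other way at 7.06 and 6.99 against 5.99 to 6.53. Bhlhe40 and Bhlhe41, which compete for E-boxes, lay above the other mice by 0.12 and 0.29, and Arntl2 below by 0.03. Clock itself spanned 1.20-fold over the 8 mice, from 10.76 to 11.03.

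**Figure D4:**
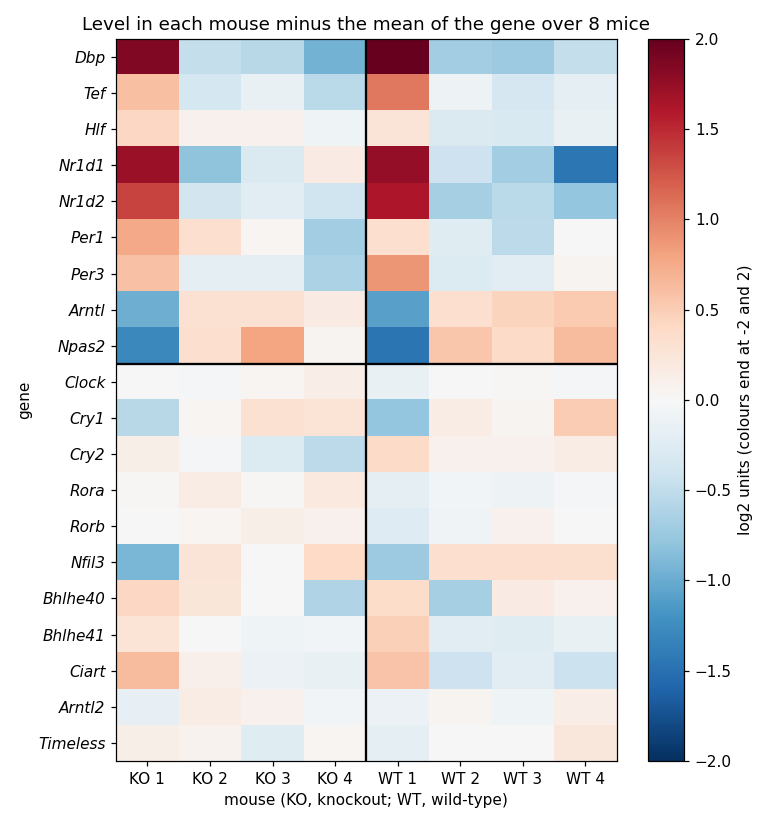
Level of each gene in each mouse minus its mean over the 8 mice (log2 units; colours end at -2 and 2), with the 9 clock and output genes above the line and 11 other loop genes below it. The first knockout and first wild-type columns share their colours, red in Dbp and Nr1d1 and blue in Arntl, Npas2, Cry1 and Nfil3.

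Cry2, a cryptochrome of the same loop, was at 8.06, 7.91, 7.68 and 7.43 in knockout and 8.33, 8.03, 8.04 and 8.10 in wild-type mice 1 to 4. Its difference of -0.36 ± 0.13 (SE, n = 4 each; limma, adjusted p = 0.208) was the largest in size among these 11 genes, and the groups overlapped. Rora, a receptor that activates ROR elements, stood at 0.20 ± 0.08 (adjusted p = 0.226), with every knockout mouse above every wild-type mouse, and its relative Rorb at 0.13 ± 0.09 (adjusted p = 0.496). Timeless stood at -0.01 ± 0.11 and Arntl2 at 0.01 ± 0.09.

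Of 11 measured genes listed as targets of DBP, TEF and HLF 0 passed between genotypes, with a median of -0.21. Beside the 1.15% of all genes that passed, a count of 0 in this list or in the 3 that follow is near the background and is no result about the outputs. Their ends were Cyp2a4, a steroid hydroxylase, at -0.91 ± 0.30 and Cyp2b10, a drug-metabolising P450, at 0.80 ± 0.26 (SE, n = 4 each), and the smallest adjusted p was that of the carboxylesterase gene Ces2a (-0.45 ± 0.10, limma, adjusted p = 0.0554). Cyp3a11 alone of these 11 had both mice numbered 1 above the rest, by 0.02. In the lists that follow, both lay above the rest in 2 and below in 1 of the 8 REV-ERB and ROR targets. Of the 9 E-box outputs 2 lay above and 2 below, and of the 10 turnover genes 3 above and 0 below. Over all genes 4.82% lay above and 4.6% below, and these counts carry no test. Of 8 listed REV-ERB and ROR targets 0 passed (median -0.13), with Elovl3, a fatty acid elongase, at -1.55 ± 0.47 and Lpin1 at 0.36 ± 0.24. Of 9 measured E-box outputs 0 passed (median -0.07), with Wee1, a cell cycle kinase, at -0.50 ± 0.16. Noct, a phosphatase that cycles in liver, was at 7.76, 7.55, 7.38 and 7.74 in knockout and 6.98, 7.07, 6.68 and 7.32 in wild-type mice 1 to 4. Those groups did not overlap, and the difference of 0.59 ± 0.13 (SE, n = 4 each) missed the threshold at an adjusted p of 0.0585 (limma). It passed under 3 of 19 alternatives: a block by mouse number (0.0274), a trended robust variance (0.0372) and genes of a mean under 6 left out (0.0365). Under the other 16 it missed, with an adjusted p of 0.309 against Cre-free controls and 0.196 without both mice numbered 1 (limma). None of 10 genes of clock protein turnover passed (median 0.08), from Sirt1 at -0.05 ± 0.09 to Nampt at 0.23 ± 0.12, with the smallest adjusted p that of Prkaa2 (0.22 ± 0.10, limma, adjusted p = 0.313).

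In whole liver RNA, fewer cells of a type and less RNA per cell cannot be told apart. The mean level of the 8 macrophage markers was 9.51 in knockout mouse 1 and 9.63 in wild-type mouse 1, within the 9.38 to 10.08 of the other mice, and that of 8 measured lymphocyte markers was 6.18 and 5.99, within 5.90 to 6.35. The hepatocyte marker means of 13.10 and 13.12 lay within 13.04 to 13.13. That of 5 measured cholangiocyte markers was 6.24 and 6.26, below the 6.31 to 6.39 of the other mice, and its part in the clock values was not tested. Between genotypes all 8 macrophage and all 8 lymphocyte markers had a positive difference, as did 57.2% of all genes, and 0 passed (medians 0.14 and 0.25). Positive differences were also found in 6 of 6 skeletal muscle markers (median 0.19; smallest adjusted p 0.0963, Myh2), 4 of 4 measured adipocyte markers (median 0.10) and 6 of 7 endothelial markers (median 0.06), with 0 passed. Of 7 stellate markers 2 were positive (median -0.10). The part of these cell types in the genotype differences was not tested.

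Genes whose pattern over the 8 mice was most like that of Dbp or Arntl were ranked by Pearson r among 650 genes with a mean of at least 6 and an SD of at least 0.3. That ranking rests on the 2 clusters of mice, so its coefficients are not given. Instead the levels in both clusters and r over the 6 mice numbered 2 to 4 describe the genes it named, with no test.

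Nearest to Dbp were Gstt2, Slc2a5, Abcg8, Bnip3 and Igkv15-103, an immunoglobulin segment whose probes may read its relatives. Gstt2, a glutathione transferase gene, was at 9.30 and 9.29 in the mice numbered 1 and between 7.93 and 8.51 in the others, and within these 6 its r with Dbp was 0.87. For the fructose transporter gene Slc2a5 that r was 0.47, for Igkv15-103 0.47, for Bnip3, which encodes a mitophagy receptor, 0.18 and for the sterol transporter gene Abcg8 0.11. Most opposed to Dbp were Clpx, Ppard, Nfil3, Slc45a3 and Gfpt1. Clpx, a mitochondrial chaperone gene, was at 10.45 and 10.50 against 11.08 to 11.27, with r = -0.84 in the 6 mice. Gfpt1 and Nfil3 had r = -0.71 and -0.52 there, while Ppard and Slc45a3 had the other sign, at 0.31 and 0.23.

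Nearest to Arntl were Ppard, Tubb2a, Tjp3, Chka and Fndc3b. Ppard was at 8.40 and 8.25 in the mice numbered 1 and between 9.85 and 10.26 in the others. In the 6 mice r with Arntl was 0.81 for Tjp3, 0.77 for the tubulin gene Tubb2a, 0.70 for the choline kinase gene Chka, 0.40 for Fndc3b and 0.37 for Ppard. Most opposed to Arntl were Bnip3, Abcg8, Fbxo21, Tns2 and Igkv15-103. Their r in the 6 mice was -0.40 for Tns2, -0.39 for Fbxo21 and -0.06 for Igkv15-103, and positive for Bnip3 (0.04) and Abcg8 (0.12). The genotype difference of each gene named for likeness missed the threshold, with adjusted p of 0.773 or more (limma). These genes were chosen for following Dbp or Arntl, which hardly differed between genotypes, so that outcome was largely fixed by the choice and is no result.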

How the data were processed

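The deposited values are log2 RMA expression values (background correction, quantile normalization and probe set summary) of 39137 probe sets, made by the authors with oligo version 1.24 per the submitters' processing notes. The log2 scale was inferred from the method and the range of 1.28 to 13.88. RMA pulls large differences toward 0. The chip definition and genome build are not given in the sources used here. Of the probe sets, 23521 had 1 gene symbol in the platform annotation, 1814 several and 13802 none. Genotype differences come from lmFit and eBayes (limma 3.58.1, R 4.3.3), with genotype alone in the model, two-sided p and Benjamini-Hochberg adjustment over 22180 genes. The fit was tested on simulated data with independent normal errors. No mouse stood apart across genes there, so that test does not cover the spread seen in the clock genes. Errors are limma SEs or SDs over mice, and 4 arrays a group limit the precision. The genes named are the measured members, the other loop genes, the ends and the smallest adjusted p of each output list, and those most like Dbp or Arntl (5 at each end, leaving out predicted, RIKEN, small RNA and receptor family symbols). Rgs16 was chosen after its values were seen. The members and lists were chosen with earlier results of these data known. Same-numbered mice of the 2 genotypes correlated in their deviations at 0.27, -0.02, 0.03 and -0.10 for numbers 1 to 4, so the numbers were not taken as pairs. Alternatives covered normalization, variance model, filter, probe sets, blocks, control classes and mice left out.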

Additional observations from a re-analysis of the deposited data

Results flagged for a closer look

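Within a genotype, the gap of the extreme mouse to its nearest neighbour divided by the group's range was compared with Dixon's 95% critical value for 4 samples. Of 40 groups (20 clock genes in 2 genotypes) 10 were past it, where chance puts about 1 in 20, and in all 10 the extreme mouse was number 1. Over all genes 5.48% of such groups were past it, and 1.80% with mouse 1 as the extreme. The separation of these mice was seen before this comparison was made, which therefore restates it and adds no support. In the knockout group these were Dbp (0.835), Nr1d2 (0.905) and Arntl (0.887). In the wild-type group they were Dbp (0.911), Tef (0.831), Nr1d2 (0.899), Arntl (0.876), Npas2 (0.885), Nfil3 (0.982) and Bhlhe41 (0.867). The same mouse recurs, so these are not 10 independent results.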

How the results depend on the processing

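Under all 19 alternatives 0 of the measured clock genes passed in either direction, the lowest adjusted p being 0.179 (limma). Of 170 refitted differences 145 kept their sign and 25 turned it, 18 of these with 1 mouse left out. With 1 mouse left out Dbp ranged from -0.69 to 0.60, Tef from -0.46 to 0.0937, Nr1d1 from -0.11 to 1.05, Nr1d2 from -0.23 to 0.76, Per3 from -0.45 to 0.0402, Hlf from 0.15 to 0.37, Per1 from 0.0019 to 0.49, Arntl from -0.49 to 0.20 and Npas2 from -0.55 to 0.37. Against the Cre-free controls Dbp turned to 0.56 and Tef to 0.0294. Against controls with Cre Nr1d1 turned to -0.33, Nr1d2 to -0.45, Arntl to 0.27 and Npas2 to 0.51, and with Arntl as a covariate Npas2 turned to 0.091. The class with Cre holds wild-type mouse 1. A replicate block by mouse number changed no call of a clock gene (limma, Hlf with adjusted p = 0.239, Dbp at -0.07 ± 0.12 SE). It gave 68 higher and 142 lower genes over the whole table, against 96 and 159. Among same-numbered mice, only those numbered 1 were each other's best match across the genotypes. Sco1 passed with a trended variance (adjusted p = 0.0464), with dim genes left out (0.0367) and with Arntl as a covariate (0.0445), and missed under the other 16 alternatives (limma). Over all genes the counts of higher and lower genes were 159 and 300 with a trended robust variance, 145 and 340 with a mean of at least 6, 15 and 32 against Cre-free controls, 13 and 16 against controls with Cre, and 28 and 37 without both mice numbered 1. Lower genes numbered 271 with centred arrays (86 higher) and 245 with array weights. With 1 mouse left out, higher genes ranged from 29 to 65 and lower genes from 60 to 119. Pairs of clock genes past the threshold numbered 28 over 8 mice, 2 by Spearman, 0 without both mice numbered 1, 0 when genotype means were also taken out (chosen after seeing the data), and 2 to 21 with 1 mouse left out, the low end without knockout mouse 1 (3 without wild-type mouse 1). Apart from the mice left out and control classes, the cause of these moves was not tested.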

Other observations

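Some genes outside the clock loop also placed both mice numbered 1 beyond all others. Of 8 measured temperature and heat shock genes 3 lay below and 1 above: Hsph1, a chaperone of the HSP110 family, was at 7.42 and 7.72 in the mice numbered 1 and at 8.22 to 9.13 in the others, and Hsp90aa1 at 8.42 and 8.53 against 8.86 to 9.31. Cirbp, an RNA-binding protein induced by cold, lay above by 0.09. Of 15 measured feeding and fasting genes 2 lay above and 3 below, Angptl4, a lipase inhibitor, by 0.41 above and Pnpla3, a lipid droplet enzyme, by 0.34 below. Of 10 glucocorticoid targets 1 lay above and 1 below. Between genotypes 0 genes of these lists passed, where the smallest adjusted p of the 3 lists were 0.203 for Hspb1, 0.0535 for Creb3l3 and 0.0591 for Mt2 (limma). Of 10 immediate early genes 0 passed (median 0.17; smallest adjusted p 0.17, Atf3), and their mean level was 8.50 in knockout mouse 1, 7.78 in wild-type mouse 1 and 7.63 to 7.98 in the others. These are given as values, without a test, beside the 4.82% and 4.6% of all genes that lay above and below.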
